A study of Arabidopsis thaliana with 58 samples.

Results

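The chromosome arms of Arabidopsis are mostly genes, and dimethylation of histone H3 at lysine 9 (H3K9me2) on them is scattered in short islands. Chromosome 4 has an additional gene-poor block in its short arm, the heterochromatic knob. The regions described here are the H3K9me2 peaks on both arms of chromosome 4, that is, all deposited peaks whose summit lies before 2.8 Mb or from 5.5 Mb on. They numbered 322 of the 4144 peaks of the genome. Of these, 103 lay in the knob (1.6 to 2.2 Mb), 51 in the rest of the short arm and 168 in the long arm. The peaks are named P1 to P322 along the chromosome.

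The series holds 58 samples, and its main subject is the comparison of 2 ways to sequence DNA methylation in Arabidopsis thaliana. The peaks come from a single ChIP-seq library made from closed flower buds of wild-type Col-0 plants, grown at 22 °C in long days for 4 to 5 weeks. Nuclei were cross-linked with 1% formaldehyde, and the chromatin was shared between an antibody against H3K9me2 and one against histone H3. Neither the H3 library nor the leaf H3K9me2 library is analysed here. Flower buds mix many cell types, so a low fold can be weak marking in all cells or strong marking in a few, and these cannot be told apart. With 1 library there are no replicates. Peaks and loci are not replicates of a condition either, so every value below is a description of this library with no test, and the intervals of shares cover counting error only. The peak list holds no read counts, so the depth is unknown.

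H3K9me2 is the main histone mark of silent chromatin in plants. It is written by the SUVH4, SUVH5 and SUVH6 histone methyltransferases, which bind methylated DNA, and it is read by the chromomethylases CMT3 and CMT2, which methylate cytosines in the CHG and CHH contexts (H is A, C or T). The loop keeps transposons and other repeats silent. In Arabidopsis the mark is known from the pericentromeres, from the knob of chromosome 4 and from single transposons among the genes of the arms.

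The sequence under the mark is shown first at the summits of the peak of highest fold in each region, since these are the strongest places of the knob, the rest of the short arm and the long arm. The fold is the authors' ratio of the H3K9me2 signal over a background at the summit. Capitals mark CHG sites on the strand shown, read from the TAIR10.1 sequence of RefSeq. The 100 bases lie at chr4:1952680-1952779 (P85, knob, fold 8.96), chr4:632438-632537 (P7, rest of the short arm, fold 8.28) and chr4:6534691-6534790 (P230, long arm, fold 8.83).
P85 summit: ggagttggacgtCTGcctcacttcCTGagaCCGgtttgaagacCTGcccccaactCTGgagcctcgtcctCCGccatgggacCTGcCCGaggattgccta
P7 summit: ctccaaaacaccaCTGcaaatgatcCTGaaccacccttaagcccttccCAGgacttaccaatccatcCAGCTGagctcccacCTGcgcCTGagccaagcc
P230 summit: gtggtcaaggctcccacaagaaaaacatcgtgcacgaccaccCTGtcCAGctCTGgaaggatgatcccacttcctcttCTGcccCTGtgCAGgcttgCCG
They hold 8, 7 and 7 CHG sites and 5, 1 and 3 CG sites in this order. All 3 summits lie in loci that the annotation types as pseudogenes, a type that in this annotation includes many transposon genes. The loci are AT4G04070 for P85, AT4G01490 for P7 and AT4G10580 for P230.

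The peak of highest fold in the long arm and that of second-highest fold in the knob are copies of the same element. P230 (chr4:6530246-6537009, fold 8.83) and P25 (chr4:1619353-1624334, fold 8.80, AT4G03650) shared a stretch of 3016 bases with 96.9% identity. The first 120 bases of it are shown, at chr4:6531604-6531723 on the plus strand and chr4:1624034-1624153 on the minus strand, with the 2 differing bases in capitals.
P230 copy: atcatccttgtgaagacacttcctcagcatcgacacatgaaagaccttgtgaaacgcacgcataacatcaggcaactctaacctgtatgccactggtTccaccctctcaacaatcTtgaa
P25 copy: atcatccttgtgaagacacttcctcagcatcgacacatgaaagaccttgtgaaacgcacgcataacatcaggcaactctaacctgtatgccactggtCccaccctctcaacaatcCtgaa
Each copy also had a smaller peak beside it on the left, P229 of 550 bp (fold 2.50) next to P230 and P24 of 623 bp (fold 2.55) next to P25. The gaps were 178 and 221 bp. The shared stretch runs in opposite directions in P230 and P25, so these small peaks lie toward opposite ends of the element. These ends need not differ in sequence. P229 lies in a repeat on the left of P230 (chr4:6529315-6530472) that recurs on the right (chr4:6536004-6537160) with 96.8% identity. Only 45.7% and 47.8% of the 50-base windows of P230 and P25 occurred once in the 5 chromosomes, 50 bases being the length of the reads. How reads with several matches were placed is not given in the sources used here, so the signals of such copies may share reads.

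The ends of long terminal repeat (LTR) retroelements are direct repeats that begin with TG and end with CA. The last 60 bases of the left and right repeats inside P85 and P301 are shown. P85 was taken because it has the highest fold of the 322 peaks. P301 (chr4:11363477-11369245, fold 7.06) was taken as the strongest long-arm peak with such ends and at least 98% identity. Capitals mark the bases at which the copies of a pair differ. The stretches lie at chr4:1944244-1944303 and chr4:1955262-1955321 for P85, and at chr4:11363966-11364025 and chr4:11368594-11368653 for P301.
P85 left: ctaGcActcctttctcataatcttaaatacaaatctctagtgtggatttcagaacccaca
P85 right: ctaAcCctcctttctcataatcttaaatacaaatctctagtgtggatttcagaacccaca
P301 left: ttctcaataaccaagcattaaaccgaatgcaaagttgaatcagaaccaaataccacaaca
P301 right: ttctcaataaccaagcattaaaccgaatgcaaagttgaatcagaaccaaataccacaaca
The pair in P85 differed at 2 of these bases, and that in P301 at 0. Over their whole length the repeats were 96.9% identical in P85 and 99.2% in P301.

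The knob stood apart from both other regions in how much of it was marked. Peaks covered 46.9% of the bases of the knob, against 6.59% of the rest of the short arm and 2.50% of the long arm. The share in the knob was 18.7 times that of the long arm, and that in the rest of the short arm 2.63 times. In peaks per Mb, the knob had 172, the rest of the short arm 23.2 and the long arm 12.8. The knob was still less covered than the pericentromere of the same chromosome, where peaks took 69.0% of the bases. Without the knob the arms of chromosome 4 were covered at 3.09%, against 7.94% on the arms of chromosome 2 and 2.26% on those of chromosomes 1, 3 and 5. The value of chromosome 2 includes a single peak of 287039 bp among 1310267 covered bases. On chromosomes 1, 3 and 5 the widest peak of the arms measured 14991 bp.

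**Figure D1:**
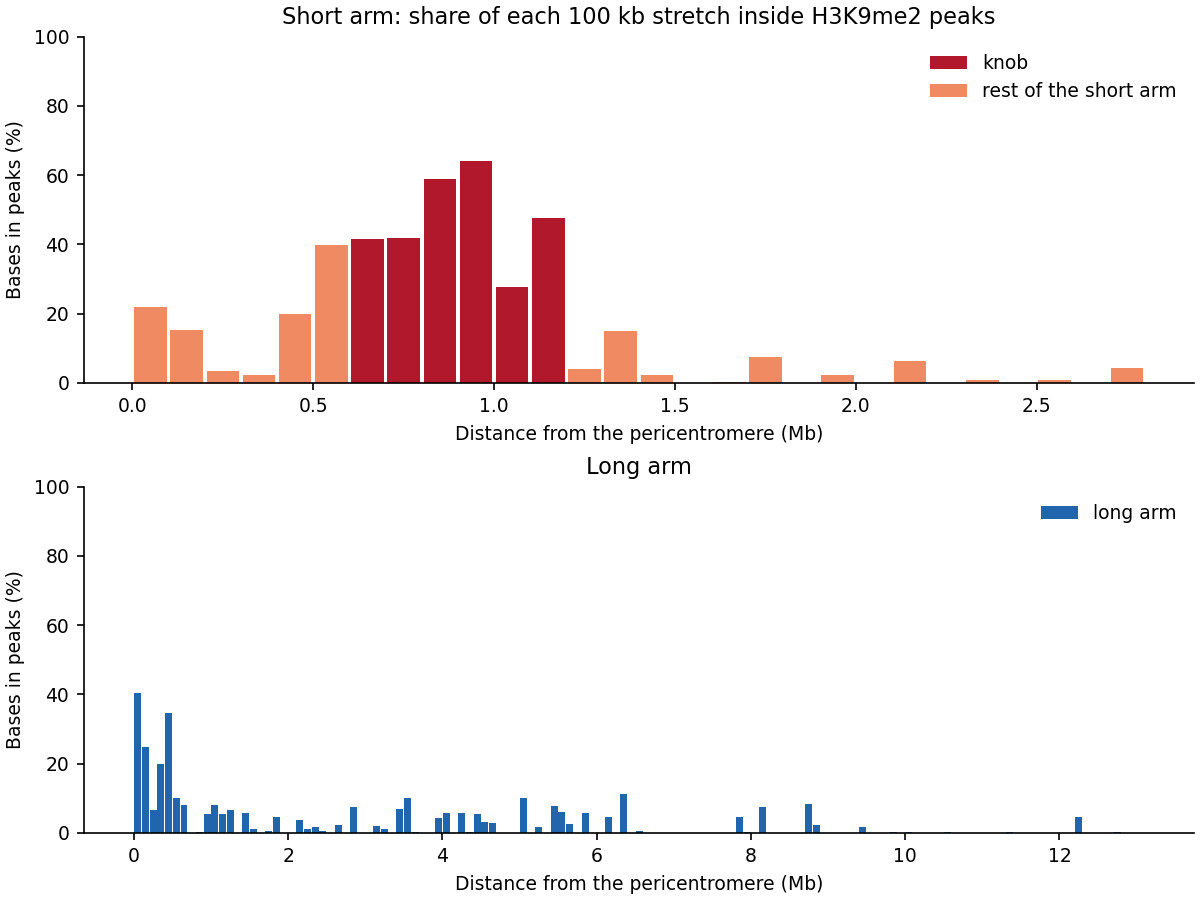
Share of the bases of each 100 kb stretch that lie in H3K9me2 peaks (vertical axis, %), against the distance of the stretch from the pericentromere (horizontal axis, Mb), in the short arm (top) and the long arm (bottom). The 6 stretches of the knob reach 27.6% to 64.0%, and 76 of the 131 stretches of the long arm hold no peak.

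Along the arms the coverage was uneven. All 6 stretches of 100 kb in the knob held peaks, from 27.6% to 64.0% of their bases, with a median of 44.8%. The rest of the short arm divided into the tip side of the knob, with 21 peaks and 2.67% of the bases covered, and the 0.6 Mb between knob and pericentromere, with 30 peaks and 17.0%. In the long arm, 62 of the 168 peaks lay in the first 0.5 Mb next to the pericentromere, where 25.2% of the bases were covered. From 6 to 12 Mb there were 89 peaks covering 2.84%, and from 12 Mb to the end 17 peaks covering 0.475%. The share of bases in protein-coding genes took the opposite order, with 12.4% in the knob, 31.0% in the first 0.5 Mb of the long arm, 59.3% from 6 to 12 Mb and 69.5% beyond. The widest run of the long arm without a peak measured 1233592 bp (chr4:12094052-13327643). The imprinted flowering gene FWA (AT4G25530), which is silenced by DNA methylation at its promoter in the vegetative plant, lies in this run, 285 kb from the nearest peak.

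Peaks of the knob lay close together rather than being typically wider. The median width was 920 bp in the knob, 1277 bp in the rest of the short arm and 923.5 bp in the long arm. The mean widths were 2774, 2762 and 1951 bp in the same order, and 7, 2 and 1 peaks reached 10 kb. Between neighbouring peaks the median gap was 525.5 bp in the knob, against 13744 bp in the rest of the short arm and 5629 bp in the long arm. When peaks within 1 kb were joined, 43, 37 and 105 blocks remained. Peaks of at least 5 kb held 61.6% of the marked bases in the knob, 66.2% in the rest of the short arm and 41.6% in the long arm.

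The median fold was 2.51 in the knob, 3.12 in the rest of the short arm and 2.70 in the long arm, with a highest fold of 8.96, 8.28 and 8.83. The order of knob and long arm was not stable. The median of the knob was 0.933 times that of the long arm, but 1.09 times among peaks at or above the median fold of the genome and 1.01 times with the knob set from 1.7 to 2.1 Mb. Weighted by bases, the mean fold was 5.28, 5.13 and 4.64, so the knob was higher once wide peaks counted for more. This mean gives the summit fold to every base of a peak. The knob value therefore leans on its widest peaks, P49 (32624 bp, fold 8.68) and P40 (17539 bp, fold 7.92). Whether the knob stays higher without them was not tested. Wide peaks had high folds, with Spearman's rho of 0.874 between width and fold over the 322 peaks, and 0.846, 0.923 and 0.872 within the knob, the rest of the short arm and the long arm. Both values of a peak rest on the same reads of the same library.

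**Figure D2:**
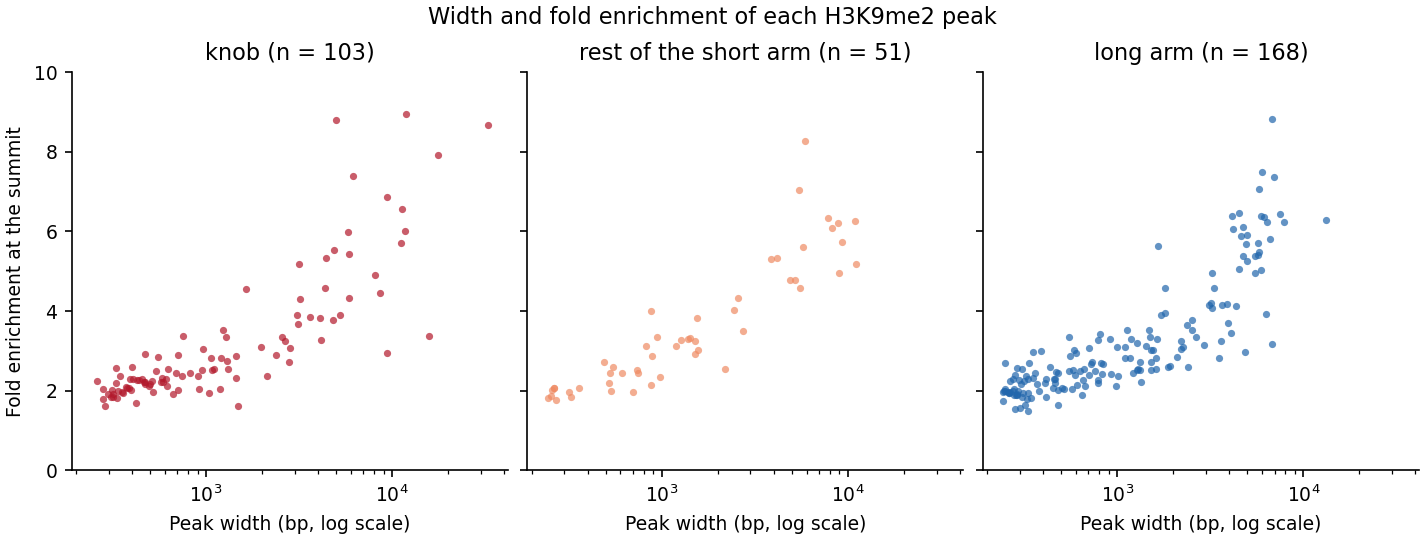
Fold enrichment at the summit (vertical axis) against the width of each peak (horizontal axis, bp on a log scale), with a point for each of the 103 knob peaks, 51 peaks of the rest of the short arm and 168 long-arm peaks. In each region folds above 6 occur only at widths of at least 4124 bp, but wide peaks can have low folds, as P38 of the knob with 15707 bp and a fold of 3.37.

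The widest peak of the arms was P49 in the knob (chr4:1785965-1818588), with 32624 bp and a fold of 8.68. It ran over 9 pseudogene loci, 2 other non-coding loci and the protein-coding gene AT4G03830, a gene of unknown function whose whole length of 2019 bp lay in the peak. P40 (chr4:1681540-1699078) followed with 17539 bp and a fold of 7.92, and P38 (chr4:1664733-1680439) with 15707 bp. P85 (chr4:1943710-1955537) measured 11828 bp and P93 (chr4:2000060-2011701) 11642 bp, with a fold of 6.02. Each of these last 4 covered only pseudogene loci. In the rest of the short arm the widest peak was P127 (chr4:2245665-2256753, 11089 bp, fold 5.18), followed by P16 (chr4:1448093-1458989, 10897 bp, fold 6.27), P145 (9318 bp, fold 5.73), P140 (9012 bp, fold 4.96) and P150 (8852 bp, fold 6.22). Its highest folds were those of P7 (8.28), P147 (7.04) and P149 (6.34).

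In the long arm P184 (chr4:5684083-5697346) was the widest, with 13264 bp and a fold of 6.30, in the marked stretch next to the pericentromere. P208 (7853 bp, fold 6.24), P309 (7520 bp, fold 6.45), P260 (6980 bp, fold 7.36) and P230 (6764 bp, fold 8.83) came next in width. P230, P296 (chr4:10992876-10998868, fold 7.49) and P260 had the highest folds. P309 (chr4:13624446-13631965) lay far out on the gene-rich arm, 402 bp from the coding gene AT4G27190. The first peak of the chromosome, P1 (chr4:868-1811, 944 bp, fold 3.34), covered the whole of AT4G00005, annotated as a PRA1 family protein. Its 153 CG cytosines per kb, counted over both strands, set it against a median of 49.8 over the 322 peaks. The last peak, P322 (chr4:18256390-18256664), had 275 bp and touched no locus.

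Protein-coding genes with a base in a peak were rare outside the knob. In the knob they were 10 of 42, or 23.8% (95% Wilson interval 13.5% to 38.5%), in the rest of the short arm 14 of 538, or 2.60% (1.56% to 4.32%), and in the long arm 34 of 3490, or 0.974% (0.698% to 1.36%). Over all 5 chromosomes the share was 2.53%. The share in the knob was thus far above that background and the share in the long arm below it. Neither was particular to its region. The share was 27.3% (30 of 110) in the pericentromere of chromosome 4, within the interval of the knob. It was 0.958% on the arms of chromosomes 1, 3 and 5, within the interval of the long arm, and 4.28% on the arms of chromosome 2. The interval of the rest of the short arm holds the background. Of the 58 genes, 35 had at least 50% of their length in peaks. In the long arm 19 of the 34 had the peak inside the gene, short of both ends.

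**Figure D3:**
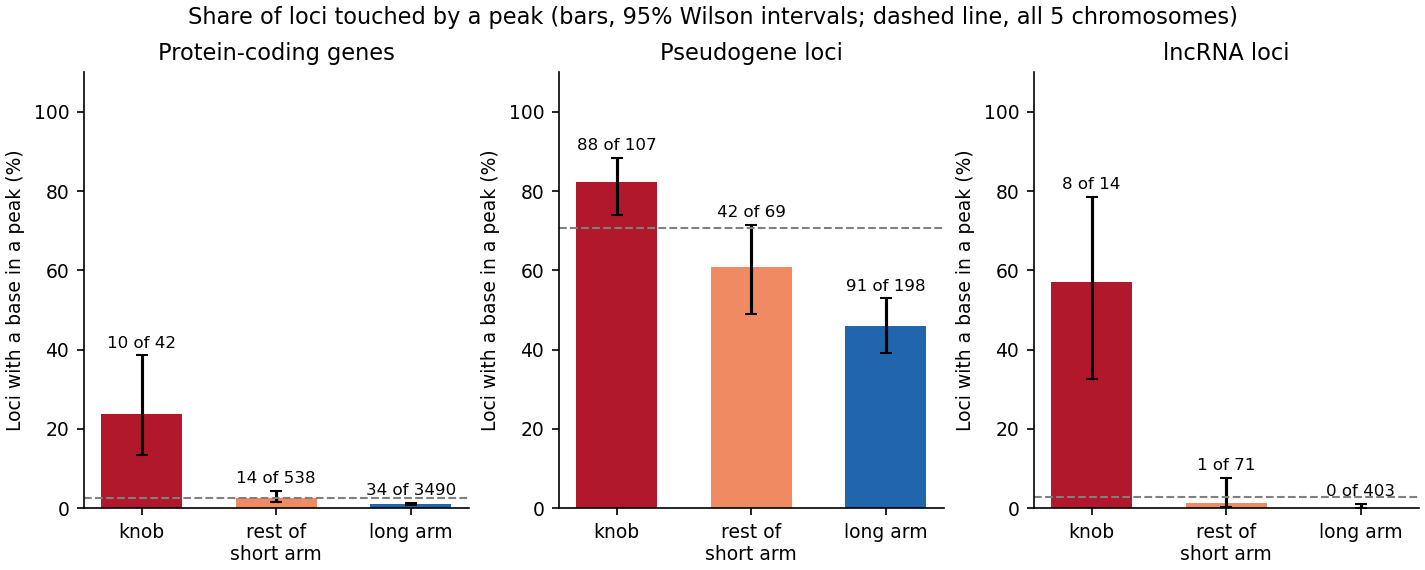
Share of protein-coding genes, pseudogene loci and lncRNA loci with at least 1 base in a peak (vertical axes, %), in the knob, the rest of the short arm and the long arm. Bars give the share with its count, whiskers the 95% Wilson interval, and the dashed line the share over all 5 chromosomes; the knob has the highest bar in each panel.

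The 10 marked coding genes of the knob were mostly small or of unknown function. AT4G04265, annotated as a transposase of the En/Spm type, lay wholly in a peak (730 bp, fold 2.73), as did AT4G03830 and AT4G04415 (1336 bp, fold 5.71). OFP9 (AT4G04030), of the OVATE family of transcriptional repressors, had 1158 of its 1320 bp in a peak of fold 2.82 that included its start. AT4G03950, a nucleotide-sugar transporter family gene, had 85.8% of its length in 2 peaks. AT4G04110, which encodes a TIR domain of the kind found in immune receptors, had 898 bp at its start in a peak of fold 5.33. AT4G04402, a phosphorelay mediator, had 48.6% of its length in peaks, and AT4G03930, an invertase and pectin methylesterase inhibitor gene, 31.3%. The other 2, AT4G03728 and AT4G03645, are uncharacterized and had 70.6% and 63.2% in peaks.

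The other 32 coding genes of the knob had no base in a peak, and many of them lay together. The knob held 19 runs of at least 5 kb without a peak, which made up 40.8% of its length. Coding genes took 25.0% of the bases of these runs and 3.67% of the rest of the knob, and pseudogene loci 11.8% and 57.4%. A run of 27352 bp (chr4:2109619-2136970) held 6 coding genes, among them AT4G04320, annotated as a malonyl-CoA decarboxylase, and AT4G04350, an aminoacyl-tRNA synthetase. A run of 20436 bp (chr4:2020092-2040527) held 5, including AT4G04210, a UBX domain gene, and AT4G04200, a signal peptidase subunit. Of the 19 runs, 12 overlapped a coding gene and 7 did not, and these 7 held 40.7% of the bases of the runs. Apart from the widest run, 5 of the 6 runs without a coding gene held pseudogene loci, which took up to 50.3% of the run.

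The widest run of the knob without a peak measured 38443 bp (chr4:1702774-1741216) and held no annotated coding or pseudogene locus. It was a tandem array of a unit of about 1945 bases. The whole array (chr4:1698912-1742384, 43473 bp) had 22 copies of at least 90% of the unit and a partial 23rd, and the full copies were 90.7% to 95.5% identical to the copy used as the query. Peaks touched it only at its ends, with 800 bases or 1.84% of its length, and 19 of the 23 copies had no base in a peak. Only 32.7% of the 50-base windows of the run occurred once in the genome, against 93.8% of the other bases of the knob outside peaks. The part of the placing of reads in this was not tested. Other matches of the unit were counted only above a minimum length and identity and away from the array. None of these was on chromosome 4. The 10 on other chromosomes were at most 510 bases long with at most 75.1% identity.

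The array is shown by 100 bases of 2 neighbouring copies without a peak, the 12th at chr4:1721928-1722027 and the 13th at chr4:1723876-1723975. The stretches were chosen for their CG sites, which are in capitals.
array copy 12: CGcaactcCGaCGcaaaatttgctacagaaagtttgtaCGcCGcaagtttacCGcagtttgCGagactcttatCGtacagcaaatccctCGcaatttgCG
array copy 13: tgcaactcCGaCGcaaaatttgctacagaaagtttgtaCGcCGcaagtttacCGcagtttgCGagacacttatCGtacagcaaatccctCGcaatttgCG
They hold 10 and 9 CG sites. Over the whole run CG cytosines numbered 67.5 per kb and CHG cytosines 32.1 per kb, counted over both strands, whereas the peaks of the knob had 64.0 and 66.7. The run without a peak thus matched the marked bases of the knob in CG density but had fewer CHG cytosines. The other bases of the knob outside peaks had 43.6 CG and 38.8 CHG cytosines per kb. A low CHG density was thus not particular to the array.

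Pseudogene loci made up most of the marked sequence. They held 65.7% of the marked bases of the knob, 68.9% in the rest of the short arm and 62.9% in the long arm. With at least 1 base in a peak were 88 of 107 in the knob, or 82.2% (95% Wilson interval 73.9% to 88.3%), 42 of 69 in the rest of the short arm, or 60.9% (49.1% to 71.5%), and 91 of 198 in the long arm, or 46.0% (39.2% to 52.9%). Over all 5 chromosomes, pericentromeres included, it was 70.6%, so the knob lay above and the long arm below the genome. In the pericentromere of chromosome 4 it was 93.9%, above the knob. On the arms of chromosome 2 it was 61.9%, and on those of chromosomes 1, 3 and 5 37.2%. With these borders the long arm thus lay above the arms of chromosomes 1, 3 and 5. This depended on the stretch next to the pericentromere. With the long arm starting at 6.0 Mb its share was 38.3%, within the interval of the arms of chromosomes 1, 3 and 5 (34.3% to 40.2%). Peaks that touched a pseudogene locus had a median width of 2161 bp and a median fold of 3.25 (n = 198), against 470.5 bp and 2.3 for peaks that touched none (n = 124). A wider peak is more likely to touch any locus and wide peaks have high folds, so the split itself favours this order.

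The annotation types these loci either as transcribed pseudogenes or plainly as pseudogenes, and the types differed. Of the loci typed as transcribed pseudogenes, 4 of 8 in the knob, 3 of 24 in the rest of the short arm and 2 of 65 in the long arm had a base in a peak, beside 17.8% over all 5 chromosomes. Of those typed plainly as pseudogenes it was 84 of 99 (84.8%), 39 of 45 (86.7%) and 89 of 133 (66.9%), beside 83.1% over all 5 chromosomes. The Wilson intervals of the long arm were 0.848% to 10.5% for the transcribed kind and 58.5% to 74.3% for the plain kind. Transcribed loci were shorter, with a median of 560 bp against 1950 bp on the arms, and the part of length in the difference was not tested. Among the plain pseudogenes, the Wilson intervals of the knob (76.5% to 90.6%) and of the rest of the short arm (73.8% to 93.7%) hold the genome share, and that of the long arm lies below it.

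Loci for long non-coding RNAs followed the same order. In the knob 8 of 14 had a base in a peak, or 57.1% (Wilson interval 32.6% to 78.6%). It was 1 of 71 in the rest of the short arm and 0 of 403 in the long arm (upper Wilson limit 0.944%), beside 2.7% over all 5 chromosomes. In the pericentromere of chromosome 4 it was 2 of 25, or 8.0%, here below the knob. None of the 76 tRNA loci of the arms was marked (upper limit 4.81%), beside 4.16% (26 of 625) over all 5 chromosomes. Of these 26, 22 were on the arms of chromosome 2, and the arms of chromosomes 1, 3 and 5 had 0 of 447. Of the 51 miRNA loci of the chromosome 4 arms 1 was marked, on the long arm (0.347% to 10.3%), beside 6.13%. Both intervals hold the genome share.

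Of a short, hand-picked list of methylation genes on the long arm (AT4G08990, DMT2, CMT2, DML3, HOG1 and SUVH9), 2 had peaks inside the gene. The share of all coding genes with a base in a peak was 2.53%, and 0.974% on the long arm. So short a list, with 2 related genes as its marked members, gives no share for methylation genes as a class. AT4G08990, known as MET2, and DMT2 (AT4G14140) are relatives of MET1, which maintains CG methylation. AT4G08990 had 2516 bp (44.0%) in a single peak of fold 3.53 that began 1887 bases after the start of the gene. DMT2 had 2321 bp (37.8%) in 3 peaks of folds 3.12, 2.52 and 2.25, of which the first began 2431 bases after the start. Most of these bases were coding sequence, 2073 of 2516 and 2061 of 2321. The peak of AT4G08990 matched DMT2, across 2 of its peaks, over 2578 bases at 90.4% identity, so the copies may share reads. MET1 itself, on chromosome 5, was 39.5 kb from the nearest peak. MEE57 (AT4G13610), a further relative on the same arm that was looked up after these values were seen, had no peak, with the nearest at 23.4 kb. CMT2, which methylates CHH sites, was 107 kb from a peak, the DNA demethylase DML3 254 kb, and HOG1, which clears the by-product of methylation reactions, 91.2 kb. SUVH9, which helps to recruit RNA polymerase V to methylated DNA, lay 2.27 kb from P250.

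At the RPP5 cluster of disease resistance genes, peaks lay beside and inside some members. RPP4 (AT4G16860), a receptor against downy mildew, had 1107 of its 7372 bp in a peak of fold 2.82, mostly coding sequence, and AT4G16900, on the far side of SNC1, had 884 bp in another. SNC1 was 3.26 kb and RPP5 25.5 kb from the nearest peak. Near-identical copies in this cluster may share reads. Of the 42 disease resistance genes on the arms, all on the long arm, 3 had a base in a peak, or 7.14% (Wilson interval 2.46% to 19.0%), beside 2.69% of such genes over all 5 chromosomes. The third was AT4G09360, which lay wholly in P208 (3095 bp, fold 6.24). Of 75 F-box genes, which choose proteins for degradation, 2 were marked, AT4G05080 over its whole 1176 bp (fold 5.73) and AT4G26350 over 45.9%. That is 2.67% (0.734% to 9.21%), beside 3.07% over all 5 chromosomes. None of 37 cysteine-rich receptor kinase genes, 46 cytochrome P450 genes, 65 pentatricopeptide repeat genes and 41 ribosomal protein genes had a base in a peak, with upper Wilson limits from 5.58% to 9.41%. The genome shares of these families were 0.0%, 0.787%, 0.787% and 1.43%, in this order. Every one of these 6 intervals holds the family's genome share, but that share includes the genes of these arms. They make up 37 of the 41 cysteine-rich receptor kinase genes and 3 of the 6 marked disease resistance genes. The comparison therefore cannot decide whether a family of the arms stands apart.

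Of the flowering genes, FWA and 6 others were looked up, and none had a base in a peak. The share over all coding genes was 2.53%, so a count of 0 in 7 sets these genes apart from no others. AG, which specifies stamens and carpels, was 139.6 kb from the nearest peak, and AP2, which acts against it in the outer whorls, 308 kb. FRI, an activator of the floral repressor FLC, was 26.5 kb away, FCA 26.8 kb and LD, also of the autonomous pathway, 23.3 kb. VRN2, a Polycomb protein of vernalization, came closest at 5.34 kb. Of the 9 loci that the annotation describes as transposon or retroelement, 4 had a base in a peak, beside 47.7% over all 5 chromosomes. These were AT4G04265 and AT4G02000, RE2 (AT4G02960), a copia-type retroelement with 2194 bp in P15 (fold 2.55), and AT4G28870, annotated as a Mutator-type transposase.

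Peaks in introns held the most marked bases of any coding genes on the long arm. AT4G22410, annotated as a spliceosome-associated protein, had 5645 bp in P303 (fold 6.39), of which 5428 were intron. AT4G11373, with a kinase domain, had 5547 bp in P234 (fold 5.49), of which 5233 were intron. At both peaks there was a pair of direct repeats with TG and CA ends, but the marked stretches did not stop at the repeats. The pair at P303 spanned 5566 bp (chr4:11820160-11825725) with 99.5% identity, and the peak ran past its right repeat. The pair at P234 spanned 4937 bp (chr4:6914662-6919598) with 96.3% identity and lay wholly inside the peak. After these came AT4G08630 with 4478 bp in 3 peaks, AT4G08760 with 3670 bp, AT4G18150 with 3204 bp and AT4G09360. In the rest of the short arm the most marked genes were AT4G05360, a zinc knuckle gene, with 1511 bp, AT4G05080, and EDA34 (AT4G00140), a calcium-binding EF-hand gene, with 1137 bp.

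Direct repeats were searched around each peak of at least 1.5 kb, whatever bases the repeats began and ended with. The longest pair of at least 100 bases was taken, set 1.5 to 15 kb apart with at least 50% of the span in the peak. Pairs were found for 13 of 36 such peaks in the knob, 5 of 23 in the rest of the short arm and 22 of 66 in the long arm. Over all these pairs, the copies were less alike in the knob, with a median identity of 95.6%, than in the long arm, with 98.6%. In the rest of the short arm it was 96.9%. At least 98% identity was reached by 1 of the 13 pairs, 1 of the 5 and 13 of the 22. Both copies ran from TG to CA in 2, 2 and 9 of the pairs, so most pairs lacked the ends of an LTR retroelement. With these ends, the 2 pairs of the knob had 96.9% and 98.7% identity and the 9 of the long arm 96.3% to 99.8%. With only 2 such pairs in the knob, these cannot decide whether its LTR copies are less alike. Peaks with a pair had a median fold of 5.70, against 4.02 for the other peaks of at least 1.5 kb, but a pair with a long span needs a wide peak. The median span was 6635 bp in the knob and 5004.5 bp in the long arm.

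**Figure D4:**
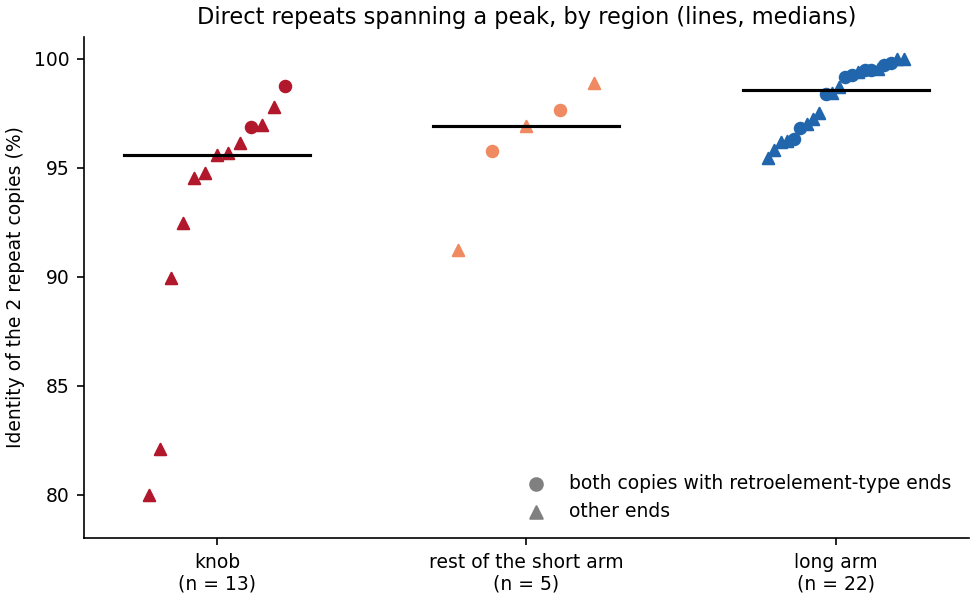
Identity of the longest pair of direct repeats at a peak (vertical axis, %). A point stands for each of 13 peaks of the knob, 5 of the rest of the short arm and 22 of the long arm. Circles are pairs whose copies both begin with TG and end with CA, triangles are other pairs, and lines are the medians of 95.6%, 96.9% and 98.6%.

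In base composition the marked bases of the 3 regions were alike. The G + C content inside peaks was 42.0% in the knob, 40.7% in the rest of the short arm and 41.4% in the long arm, against 32.9%, 35.4% and 35.7% outside the peaks of the same regions. CHG cytosines numbered 66.7, 67.7 and 67.6 per kb inside, against 37.96, 50.3 and 51.5 outside. CG cytosines numbered 64.0, 53.7 and 56.3 per kb inside and 46.5, 46.2 and 46.5 outside. The peaks thus held more CHG cytosines per kb than the unmarked bases around them in each region, and the gap was widest in the knob. Over the 322 peaks, the fold went with CHG density (Spearman's rho 0.430) more than with CG density (0.065). With G + C content the rho was 0.261, and the part of G + C content in the value for CHG was not tested. These values are a description, since wide peaks also average over more bases. TTTAGGG, the telomere repeat of Arabidopsis, searched on both strands, occurred 0.141 times per kb inside the peaks of the arms and 0.138 outside, against 0.600 in the peaks of the pericentromere.

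**Figure D5:**
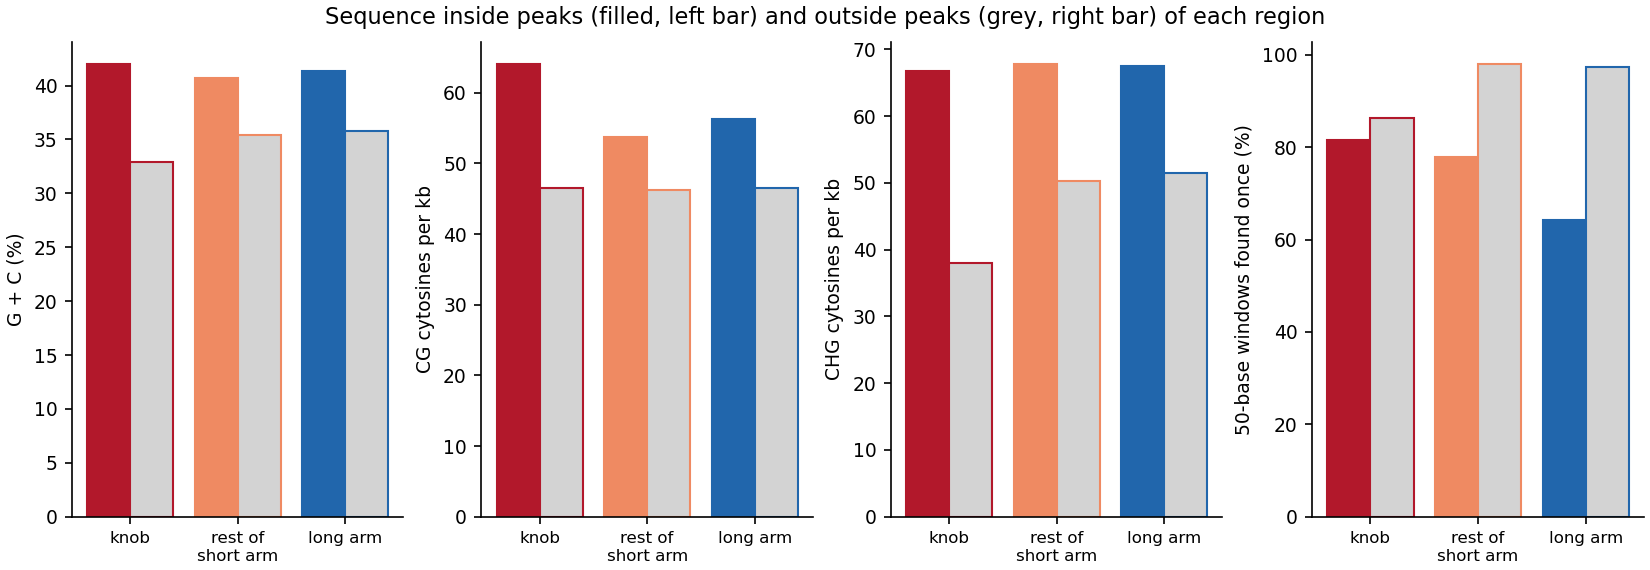
G + C content (%), CG and CHG cytosines per kb of both strands, and 50-base windows that occur once in the 5 chromosomes (%), inside peaks (filled, left bars) and outside peaks (grey, right bars) of the knob, the rest of the short arm and the long arm. CHG density is 66.7 to 67.7 per kb inside peaks in all 3 regions, and the share of windows found once is lowest in the long-arm peaks, at 64.2%.

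The long-arm peaks were the most repetitive at the length of a read. Of their 50-base windows 64.2% occurred once in the 5 chromosomes, against 77.8% in the peaks of the rest of the short arm and 81.6% in those of the knob. Outside peaks the share was 97.4% in the long arm, 97.9% in the rest of the short arm and 86.4% in the knob. Peaks with under 50% of such windows numbered 72 of 168 in the long arm, 5 of 51 in the rest of the short arm and 16 of 103 in the knob, and 7 peaks of the long arm had none at all. Matches elsewhere in the genome, of at least 200 bases at 80% identity, took 78.4% of the bases of the knob peaks, 71.7% of those of the rest of the short arm and 72.0% of those of the long arm. Most of the matched sequence was on other chromosomes, with 76.7%, 70.2% and 65.2%. Of the knob peaks, 42.5% of the bases also matched the pericentromere of chromosome 4, against 22.9% and 22.0% for the peaks of the rest of the short arm and the long arm.

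The matching places were mostly marked too, with a lower share on the arms. Peaks covered 69.0% of all bases of the chromosome 4 pericentromere but 4.75% of those of its arms, so the 2 shares have unlike backgrounds. Each match counts as a place, so a stretch matched several times counts several times. Of the places that the knob peaks matched in the pericentromere of chromosome 4, 94.2% lay at least 50% inside a peak. For the places they matched in the chromosome 4 arms it was 65.0%. The peaks of the long arm gave 86.7% and 66.3%, and those of the rest of the short arm 91.3% and 65.0%.

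Matches of at least 500 bases at 85% identity joined 73 of the 322 peaks into 20 groups. Of the grouped peaks 13 were in the knob, 10 in the rest of the short arm and 50 in the long arm, and 7 groups spanned more than 1 region. No group lay in the knob alone and 11 in the long arm alone. The largest had 16 peaks, 7 in the knob, 5 in the rest of the short arm and 4 in the long arm, and included the wide peaks P49, P40, P38, P16 and P184. The grouping took in only copies already in peaks, and folds within a group were alike in some and far apart in others. In the largest group they ran from 2.81 to 8.68. Likewise P118, P209, P210 and P312 ran from 2.54 to 6.36, and P5 and P145 of the rest of the short arm had 2.51 and 5.73. In the long arm P291 and P273 had 3.03 and 5.70 and P199 and P206 had 2.16 and 3.71. P243 and P245 to P248 were 5 peaks within chr4:7687945-7702335, over the pseudogenes AT4G13251, AT4G13253, AT4G13255, AT4G13257 and AT4G13259, with folds from 2.04 to 3.20 and up to 99.9% identity. Another group of 5, P241, P250, P272, P277 and P295, lay at separate places from chr4:7363819-7364368 to chr4:10903879-10904687, with widths of 550 to 1135 bp and folds from 3.07 to 3.52. At 4 of these 5 places a second shared peak lay near it, P240, P249, P270 and P278, with folds from 2.51 to 3.29. The caution on shared reads given above holds for all these groups.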

How the data were processed

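ChIP-seq for H3K9me2 gave 1 library of single-end reads of 50 bases. The submitters' processing notes name Bowtie 1.1.2, SAMtools, MACS2 2.1.1 and TAIR10; the control behind the fold, the thresholds and the treatment of reads with several matches are not given in the sources used here. Each deposited peak has a start, an end and a summit. The authors' fold is a ratio over a background at the summit. The −log10 values of p and of q are deposited as the caller gave them. The deposited score equals 10 times the −log10 of q without its decimals, except in 1 peak.

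Peaks were assigned to regions by summit and loci by midpoint, with the annotation and sequence of TAIR10.1 (RefSeq), within whose chromosome lengths all peaks lie. A locus counted as marked with at least 1 base in a peak. Pericentromeres of the other chromosomes were set from their share of protein-coding bases. Windows of 50 bases were compared over both strands of the 5 nuclear chromosomes. Similar sequence was found with blastn 2.17.0, and the rest was computed in Python 3.11.15 with NumPy 2.4.6, pandas 2.3.3 and matplotlib 3.10.9. Overlaps, windows and contexts were tested on simulated data. Named peaks were the 5 widest and the 3 of highest fold of each region, the first and the last peak and the widest unmarked run of the knob. Named genes came from lists of methylation, resistance and flowering genes, from product words, and from the coding genes with the most bases in peaks. Other peaks are named where a sequence or a gene turns on them. The members and lists were chosen with earlier results of these data known. Alternatives were stricter peaks, other borders, merging and other overlaps.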

Additional observations from a re-analysis of the deposited data

How the results depend on the processing

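The knob stood above the long arm in peaks per Mb (13.4 times), bases covered (18.7 times), protein-coding genes (24.4 times) and pseudogene loci (1.79 times) under every alternative run, with ranges of 8.93 to 20.4, 16.2 to 29.3, 15.7 to 36.9 and 1.74 to 2.15 times. With the short arm ending at 2.3 Mb and the long arm starting at 6.0 Mb the ratios for peaks per Mb and bases covered were 20.4 and 29.3, since the marked stretch next to the pericentromere was left out. The ratio for protein-coding genes was 36.9 with only peaks of a fold of at least 3.82, the upper quartile of all peaks, and 15.7 when the 1 kb before the start counted. The median fold of the knob was 0.933 times that of the long arm, but 1.09 times with peaks at or above the median fold of all peaks, and 1.01 times with the knob from 1.7 to 2.1 Mb, so the order was reversed in both. Depth is unknown, so bases without a peak may carry the mark below the caller's threshold, and repeats with few 50-base windows found once are the least certain. No paired analysis was possible because a single library was used.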
